A study of Mus musculus with 12 samples.

Results

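The nuclear genes for the subunits of oxidative phosphorylation were examined in the terminal ileum and the lung of neonatal mice that had breathed high oxygen. The genes were chosen by symbol (Ndufa, Ndufb, Ndufc, Ndufs, Ndufv, Uqcr, Cox4 to Cox8 and Atp5 series, with Sdha, Sdhb, Sdhc, Sdhd and Cyc1) and without assembly factors. The symbol rule uses no measured value, but it was set with earlier results of these data known. A probe was named for 80 of them, among 19057 genes with a named probe, and 75 were read by a detected probe (a detection p-value under 0.05 on 3 or more of the 6 arrays of a tissue), among 12153 genes so read. The 75 comprised 34 genes of complex I, 3 of complex II, 7 of complex III, 15 of complex IV and 16 of complex V, and 71 of them were detected on all 12 arrays. Cox7b2, Cox8c, Ndufs1, Sdha and Uqcrfs1 had a probe that did not pass detection, and another 10 genes that meet the symbol rule, among them Uqcrb, Cox8a and Atp5g1, were not analysed here. The probe named Ndufs5-ps carries a pseudogene symbol, and its signal cannot be told apart from that of Ndufs5.

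The arrays hold 3 replicates each of hyperoxia ileum, normoxia ileum, hyperoxia lung and normoxia lung. The labels give the pups, all 14 days old and with no genetic change named, as C57BL/6, and the methods as C57Bl/6J. They breathed 85% oxygen (hyperoxia) or 21% oxygen (normoxia) from day 3 to day 14 of life. The tissue was not sorted, so each array reads a mixture of cell types, and fewer cells of a type cannot be told apart from less RNA per cell. Pups of litters born together were pooled and shared out between dams, and the labels give no litter or cage, so a cage cannot be told apart from the exposure. Nor do they say whether replicates were separate pups, so that each p-value reflects only how far these arrays spread, which may be technical. On 6 arrays the source name gives another tissue than the tissue label. The tissue label was used, and the 7 lung markers (mean log2 signal 13.5 and 13.6 in hyperoxia and normoxia lung, 4.84 and 4.81 in hyperoxia and normoxia ileum) and the 6 ileum markers read (10.8 and 12.0 in hyperoxia and normoxia ileum, 5.46 and 5.38 in hyperoxia and normoxia lung) followed it on every array.

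Oxidative phosphorylation makes ATP at the inner mitochondrial membrane. Complex I (NADH dehydrogenase) and complex II (succinate dehydrogenase) pass electrons to ubiquinone, complex III hands them to cytochrome c, complex IV (cytochrome c oxidase) reduces oxygen to water, and complex V (ATP synthase) uses the proton gradient that results. The catalytic core of complexes I, III and IV is in part encoded by mitochondrial DNA, which these probes do not read, and the nuclear genes supply the other subunits. Several complex IV subunits exist as alternative isoforms, such as Cox4i2 in lung and Cox6a2, Cox7a1 and Cox8b in heart and skeletal muscle. Mucosa of the ileum is rich in absorptive epithelium that turns over quickly, and the lung at this age is still forming alveoli.

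The start regions of 5 of these genes are printed as examples, picked by their calls. Cox4i2, the member with the largest change in the lung, is not among them. Atp5k, Ndufa8 and Uqcrc1 were the members called lower in hyperoxia ileum under every setting that gave a value, the 2-fold limit apart. Of these only Atp5k reached that limit. Sdhd was the member higher there, and Cox5a was the member called in both tissues. Sequences are from RefSeq (GRCm38.p6, 250 bases before the start and 50 after, 5′ to 3′ on the gene's strand), and capitals mark matches, on either strand, to GCATGCGC (NRF-1), CCGGAAG (GABP and other ETS factors), AAGATGGC (YY1) or AAGGTCA (ERR), motifs known from respiratory chain promoters.
Atp5k, chr5:108434350-108434649, minus strand: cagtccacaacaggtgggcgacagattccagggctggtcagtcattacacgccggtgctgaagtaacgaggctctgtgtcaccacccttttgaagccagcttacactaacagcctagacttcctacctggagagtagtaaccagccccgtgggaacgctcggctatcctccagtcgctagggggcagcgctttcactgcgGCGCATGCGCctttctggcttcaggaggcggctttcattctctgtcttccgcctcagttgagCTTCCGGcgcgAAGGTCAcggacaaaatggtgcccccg
Ndufa8, chr2:36049289-36049588, minus strand: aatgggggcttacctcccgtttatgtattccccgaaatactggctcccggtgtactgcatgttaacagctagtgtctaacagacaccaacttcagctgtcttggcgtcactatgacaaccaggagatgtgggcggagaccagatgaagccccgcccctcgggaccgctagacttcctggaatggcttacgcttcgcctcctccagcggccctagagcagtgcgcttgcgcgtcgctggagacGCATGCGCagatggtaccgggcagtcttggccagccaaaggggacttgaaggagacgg
Uqcrc1, chr9:108936398-108936697, plus strand: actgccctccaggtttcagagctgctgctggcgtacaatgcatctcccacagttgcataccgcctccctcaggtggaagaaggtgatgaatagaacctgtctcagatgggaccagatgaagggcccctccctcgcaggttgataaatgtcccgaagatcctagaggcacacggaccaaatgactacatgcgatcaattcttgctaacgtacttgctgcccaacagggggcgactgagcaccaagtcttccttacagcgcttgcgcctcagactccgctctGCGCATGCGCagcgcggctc
Sdhd, chr9:50603800-50604099, minus strand: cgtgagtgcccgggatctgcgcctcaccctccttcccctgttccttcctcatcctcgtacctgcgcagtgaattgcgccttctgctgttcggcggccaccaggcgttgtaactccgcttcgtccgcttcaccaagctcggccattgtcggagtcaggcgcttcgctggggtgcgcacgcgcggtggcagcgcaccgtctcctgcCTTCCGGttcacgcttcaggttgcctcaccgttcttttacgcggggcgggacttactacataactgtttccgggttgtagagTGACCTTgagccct
Cox5a, chr9:57520982-57521281, plus strand: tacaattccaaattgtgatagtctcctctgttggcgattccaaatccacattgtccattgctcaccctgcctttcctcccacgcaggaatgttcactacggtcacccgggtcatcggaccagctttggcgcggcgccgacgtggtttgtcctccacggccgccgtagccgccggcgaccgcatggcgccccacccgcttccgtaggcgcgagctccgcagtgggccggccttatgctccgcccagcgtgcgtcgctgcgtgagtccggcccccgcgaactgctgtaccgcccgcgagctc

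In Atp5k and Uqcrc1 the NRF-1 letters lie on both strands and overlap to a 10-base block, and in Ndufa8 they end at the base before the start. Atp5k also holds the GABP and ERR letters, Sdhd holds GABP and ERR letters, and the Cox5a window holds none of the 4. Among the 62 members read that have a window in the table, 10 (16.1%) held the NRF-1 letters, against 3.05% of 27025 genes. The GABP letters stood in 16 members (25.8%, against 9.93% of all genes), the YY1 letters in 10 (16.1%, against 3.19%) and the ERR letters in 7 (11.3%, against 5.38%). The 27025 genes are all those with a window, whether or not they were read on the arrays. The motifs were picked as known from respiratory chain promoters, so these shares are descriptions only. The median log2 fold change of members with the NRF-1 letters was -0.67 in the ileum (n = 10), against -0.44 in those without (n = 52), and 0.29 against 0.34 in the lung. The order of these medians differed between motifs, at -0.60 against -0.44 in the ileum for GABP, -0.33 against -0.47 for YY1 and -0.07 against -0.47 for ERR. In the lung the medians with and without the letters were 0.30 against 0.34 for GABP, 0.42 against 0.32 for YY1 and 0.33 against 0.34 for ERR. These splits are descriptions with no test. A match is a description of letters in these windows and no evidence of binding.

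Most subunit genes had a lower signal in hyperoxia ileum and a higher one in hyperoxia lung, each against normoxia. Values are log2 signals of the brightest detected probe of a gene after background correction and quantile normalization, a fold change is hyperoxia minus normoxia on that scale, errors are SE from 1 limma fit over the 12 arrays, and p-values were adjusted over all genes tested. Of 74 members tested in both tissues, 50 (67.6%) had a negative log2 fold change in the ileum and a positive one in the lung, against 29.1% of all 10207 genes so tested. The median log2 fold change of hyperoxia over normoxia was -0.43 over 74 members in the ileum (-0.03 over all 11167 genes tested) and 0.34 over 75 members in the lung (0.02 over all 11193). The ileal shift rested largely on 1 array. The median difference of the members from the normoxia mean was 0.03, -0.24 and -0.94 on hyperoxia ileum replicates 1, 2 and 3, against 0.36, 0.32 and 0.33 on hyperoxia lung replicates 1, 2 and 3.

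**Figure D1:**
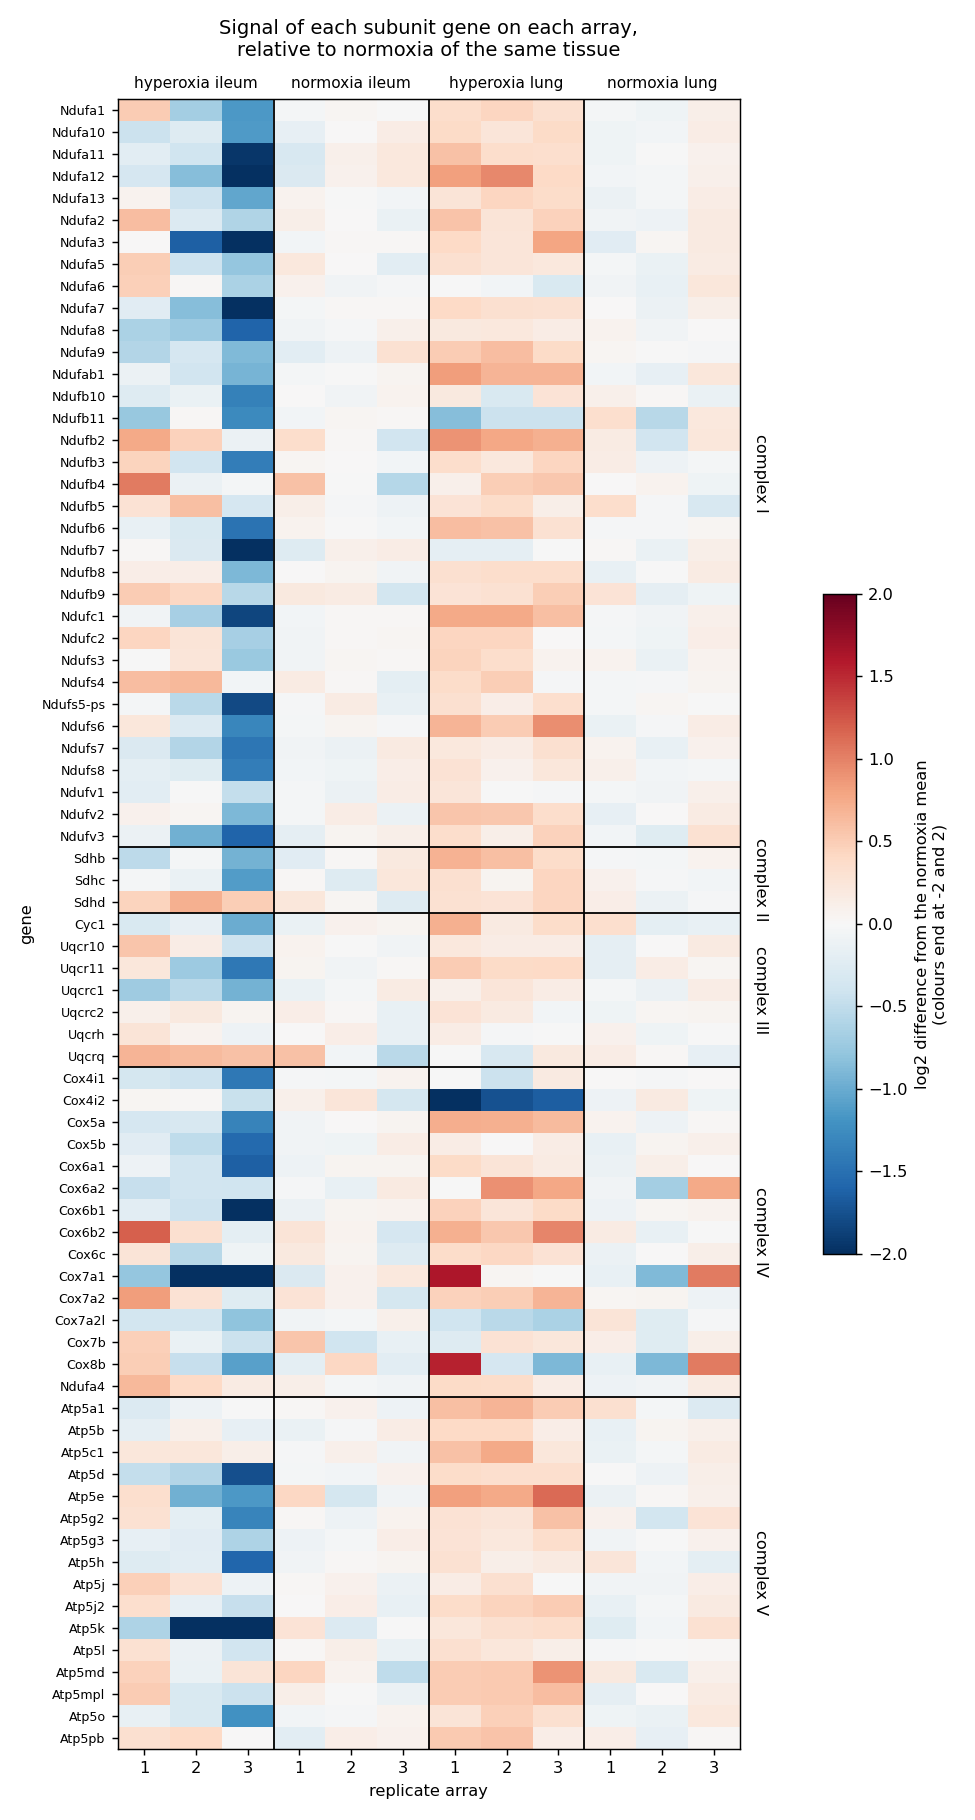
Each cell shows 1 subunit gene on 1 array as the log2 difference from the normoxia mean of the same tissue (blue lower, red higher), with columns in groups of 3 replicate arrays and rows ordered by complex. Hyperoxia ileum replicate 3 is mostly blue (58 of 74 genes lay below their lowest normoxia array), and the 3 hyperoxia lung arrays are mostly pale red, with Cox4i2, Cox7a2l and Ndufb11 blue.

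In hyperoxia ileum, 16 members were lower than in normoxia ileum and 1 was higher (adjusted p under 0.05 in limma). The lower calls were 21.6% of the 74 tested, against a background of 13.9% of all genes, and the higher call was 1.35%, against 12.3%. Members with all 3 hyperoxia arrays below all 3 normoxia arrays numbered 24 (background 21.1% of all genes) and those above numbered 4 (background 18.9%). Complex I held 8 of the lower calls among 34 genes (Ndufa3, Ndufa7, Ndufa8, Ndufa9, Ndufa10, Ndufa12, Ndufs7 and Ndufv3), complex IV 5 among 14 (Cox4i1, Cox5a, Cox5b, Cox7a1 and Cox7a2l), complex V 2 among 16 (Atp5d and Atp5k) and complex III 1 among 7 (Uqcrc1). The single higher member, Sdhd, belongs to complex II. Of 23 members with several tested probes in the ileum, 18 had the same sign on each. Ndufv3 was the called member whose probes disagreed, at -0.90 on the probe used, -0.91 on another and 0.01 on the dimmest.

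Hyperoxia ileum replicate 3 stood apart from its replicates. Pairwise r between the hyperoxia ileum arrays ran from 0.957 to 0.986 across the genes read, against 0.982 to 0.989 between the normoxia ileum arrays. On replicate 3, 78.4% of the members lay below their lowest normoxia ileum array, against 39.2% on replicate 1 and 59.5% on replicate 2, and 44.4%, 32.8% and 36.3% of all genes did so on replicates 3, 1 and 2. Without replicate 3, 4 members were lower (Atp5d, Atp5k, Ndufa8 and Uqcrc1), 3 were higher (Sdhd, Ndufa4 and Ndufs4) and the median was -0.12, with 42 of 74 values negative. Without replicate 1, 34 were lower and 1 higher. Leaving out normoxia ileum replicates 1, 2 or 3 or normoxia lung replicate 1 gave 9, 4, 3 and 11 calls, against 17 on all arrays. The share of all genes called in these fits is not given here, so the counts cannot be read as particular to the members. Signal of the 95th percentile over the median undetected probe was also lower on the hyperoxia ileum arrays (12.9, 11.2 and 12.4 on replicates 1, 2 and 3, against 15.6, 15.2 and 15.2 on normoxia ileum replicates 1, 2 and 3), and its part in the result was not tested.

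Complex I, the largest set, accounted for the most ileal calls, with 23.5% of its 34 genes lower, against 35.7% of the 14 in complex IV. Ndufa8, a supernumerary subunit on the intermembrane space side, had log2 signals of 10.67, 10.57 and 9.70 on hyperoxia ileum replicates 1, 2 and 3, against 11.23, 11.27 and 11.39 on the normoxia ileum arrays. All hyperoxia values lay below all normoxia values, with a log2 fold change of -0.99 ± 0.21 (SE, n = 3 each, adjusted p = 0.00618 from limma). Ndufa9, a supernumerary subunit of the matrix arm, read 11.14, 11.39 and 10.84 in hyperoxia ileum, against 11.51, 11.62 and 12.03 in normoxia ileum (-0.60 ± 0.18, adjusted p = 0.0285), and its call was lost without normoxia ileum replicates 2 or 3 or hyperoxia ileum replicate 3 (adjusted p = 0.0880 without the last). The 5 nuclear core subunits read (Ndufs3, Ndufs7, Ndufs8, Ndufv1 and Ndufv2), most of which hold the flavin or iron-sulfur clusters, had log2 fold changes from -0.77 to -0.17, of which Ndufs7 alone passed the test. The 29 other subunits of complex I ran from -1.21 (Ndufa3) to 0.41 (Ndufs4), and 23 were negative. Over all genes tested in the ileum, 5781 of 11167 were negative. The complex I median was -1.14 on replicate 3 and -0.28 on replicate 2, and on replicate 1 it lay at the normoxia mean. The called genes differed in where replicate 1 lay. Ndufa12, also a supernumerary subunit, read 10.76, 10.24 and 9.05 in hyperoxia ileum, against 10.81, 11.17 and 11.30 in normoxia ileum (-1.08 ± 0.33, adjusted p = 0.0291). Ndufa3 read 12.07, 10.43 and 10.06 in hyperoxia ileum, against 12.02, 12.09 and 12.10 in normoxia ileum, so replicate 1 lay within the normoxia range. Ndufa10 read 10.73, 10.91 and 10.03 in hyperoxia ileum, against 11.00, 11.18 and 11.32 in normoxia ileum, so each of its hyperoxia arrays lay below the normoxia range.

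Complexes II and III showed no common direction in the ileum. Sdhd, a membrane anchor of succinate dehydrogenase, read 9.32, 9.59 and 9.37 in hyperoxia ileum, against 9.10, 8.92 and 8.62 in normoxia ileum (0.55 ± 0.16, adjusted p = 0.0261), and the groups did not overlap. Replicate 3 lay above the normoxia arrays like the others, but the call was lost without hyperoxia ileum replicate 2 or normoxia ileum replicates 2 or 3, and with scaling to the 75th percentile (0.45, adjusted p = 0.0673), which gave 21 lower and 0 higher calls. Sdhb and Sdhc had log2 fold changes of -0.50 and -0.43 that did not pass the test. Uqcrc1, a core protein of complex III, read 11.12, 11.29 and 10.88 in hyperoxia ileum, against 11.70, 11.79 and 11.99 in normoxia ileum (-0.73 ± 0.16, adjusted p = 0.00621). Its groups were apart, whereas those of its partner overlapped. That partner, the core protein Uqcrc2, read 13.17, 13.26 and 13.13 in hyperoxia ileum, against 13.20, 13.09 and 12.91 in normoxia ileum (0.12 ± 0.15, adjusted p = 0.584). Uqcrq, a small complex III subunit, had the highest ileal log2 fold change of the members, at 8.43, 8.38 and 8.34 in hyperoxia ileum, against 8.33, 7.70 and 7.21 in normoxia ileum (0.63 ± 0.24, adjusted p = 0.0644). Complex III as a whole had a median of 0.08, the only complex whose ileal median was above 0.

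In complex V the ATP synthase genes with calls were Atp5d and Atp5k. Atp5d, a subunit of the central stalk, read 11.40, 11.30 and 10.14 in hyperoxia ileum, against 11.85, 11.83 and 11.98 in normoxia ileum (-0.94 ± 0.26, adjusted p = 0.0188), with no call once normoxia ileum replicate 3 was left out (adjusted p = 0.0705). Atp5k, a small membrane subunit that takes part in dimerisation of the synthase, read 6.51, 4.78 and 4.72 in hyperoxia ileum, against 7.40, 6.84 and 7.12 in normoxia ileum (-1.79 ± 0.37, adjusted p = 0.00466), a signal 3.45-fold lower. It was detected on 1 of 3 hyperoxia ileum arrays and on all 3 normoxia ileum arrays, so its fold is uncertain, and with no background correction the log2 fold change was -0.78. The F1 head genes Atp5a1 and Atp5b, which form the catalytic hexamer, had log2 fold changes of -0.13 and -0.08 and did not pass the test. The 2 c ring genes read, Atp5g2 (10.99, 10.49 and 9.36 in hyperoxia ileum, against 10.71, 10.59 and 10.77 in normoxia ileum) and Atp5g3 (13.95, 13.89 and 13.49, against 14.01, 14.08 and 14.25), did not pass it either.

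**Figure D2:**
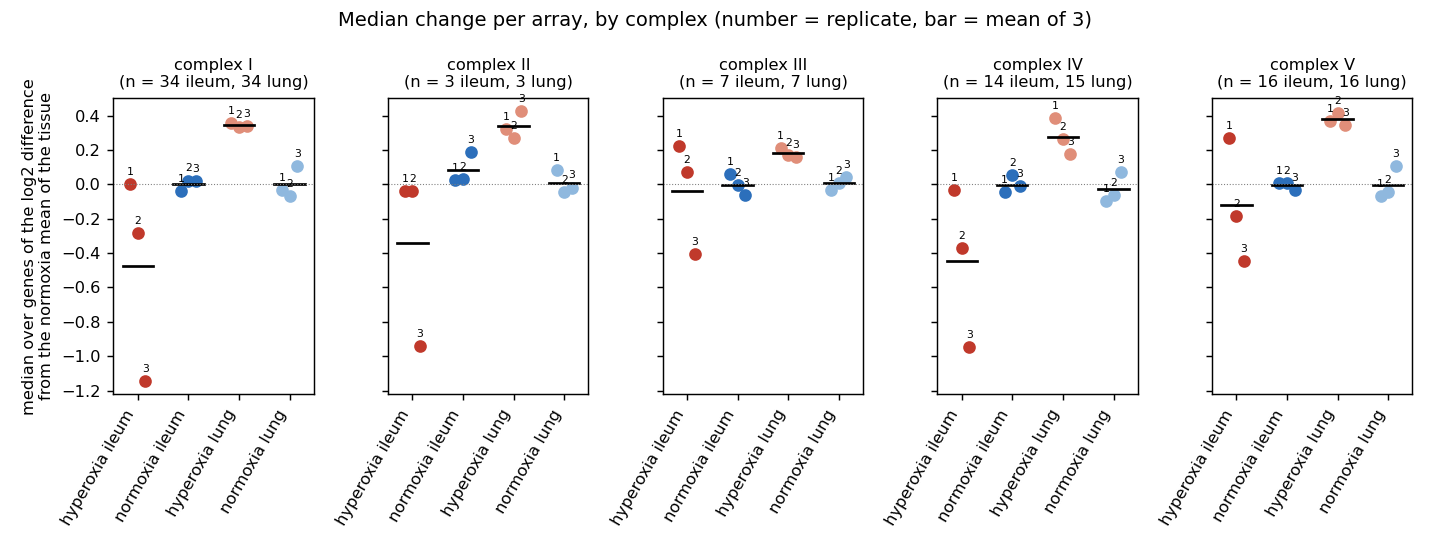
Each point is 1 array, placed at the median over the genes of a complex of the log2 difference from the normoxia mean of that tissue, and the bar is the mean of the 3 arrays. In the ileum the hyperoxia arrays spread from -1.14 to about 0 for complex I, whereas in the lung they lie between 0.33 and 0.35.

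In hyperoxia lung most subunit genes had a slightly higher signal than in normoxia lung, and few passed the test on their own. Of 75 members, 5 were higher (6.67%, against a background of 9.86% of all genes) and 1 was lower (1.33%, against 10.5%). Of the 75, 68 had a positive log2 fold change, against 5764 of all 11193 genes tested. For 45 of the 75 members all 3 hyperoxia lung arrays lay above all 3 normoxia lung arrays, whereas 22.5% of all genes did so. The reverse held for 2, Cox4i2 and Cox7a2l, against 20.9% of all genes. The median was 0.34 in complex I, 0.33 in complex II, 0.17 in complex III, 0.30 in complex IV and 0.36 in complex V, and all 16 genes of complex V were positive. Each hyperoxia lung array gave much the same shift, with medians over the members of 0.36, 0.32 and 0.33.

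The higher calls fell in complexes I, IV and V. Ndufab1, the mitochondrial acyl carrier protein, which is also a subunit of complex I, read 11.91, 11.76 and 11.76 in hyperoxia lung, against 11.02, 10.92 and 11.30 in normoxia lung (0.73 ± 0.20, adjusted p = 0.0182). Ndufb2, a supernumerary subunit of the membrane arm, read 8.03, 7.92 and 7.85 in hyperoxia lung, against 7.29, 6.76 and 7.36 in normoxia lung (0.80 ± 0.25, adjusted p = 0.0352). The 3 hyperoxia arrays lay above the 3 normoxia arrays for both.

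Atp5a1, the alpha subunit of the F1 head, read 10.19, 10.27 and 10.10 in hyperoxia lung, against 9.91, 9.55 and 9.32 in normoxia lung (0.59 ± 0.17, adjusted p = 0.0240). A second, dimmer Atp5a1 probe had a log2 fold change of -0.57 in the lung, so the 2 probes of this gene disagreed. Atp5c1, the gamma subunit, read 11.60, 11.78 and 11.24 in hyperoxia lung, against 10.89, 10.98 and 11.18 in normoxia lung (0.52 ± 0.17, adjusted p = 0.0396), with the groups just apart. Cox5a, a complex IV subunit, read 12.37, 12.36 and 12.27 in hyperoxia lung, against 11.72, 11.54 and 11.67 in normoxia lung (0.69 ± 0.23, adjusted p = 0.0468). Atp5e, a central stalk subunit, had the highest log2 fold change of the members in the lung (0.90 ± 0.32) and did not pass the test (adjusted p = 0.0595), with 8.49, 8.44 and 8.81 in hyperoxia lung, against 7.56, 7.69 and 7.77 in normoxia lung. All 4 genes had their hyperoxia arrays above their normoxia arrays. The members that did not pass the test ran from -0.57 (Ndufb11, in the membrane arm of complex I) to 0.90. Without hyperoxia lung replicate 1 none of the 5 higher calls was made, and leaving out normoxia lung replicate 2 had the same effect, although the median over the members was then 0.32 and 0.27. Counts of calls without hyperoxia lung replicate 2, normoxia lung replicate 1 and normoxia ileum replicate 2 were 2, 2 and 3. Those without hyperoxia ileum replicates 1 and 3 were 11 and 17. Ileum arrays enter the lung comparison through the shared normalization, probe choice and estimate of the spread. Which of these moved the counts was not tested, and the share of all genes called in these fits is not given here.

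Cox4i2, the isoform of complex IV subunit 4 that is known to be rich in lung and to respond to oxygen, was the member with the largest change in the lung. It read 7.70, 8.54 and 8.63 in hyperoxia lung, against 10.19, 10.47 and 10.19 in normoxia lung. The log2 fold change was -1.99 ± 0.25 (adjusted p = 7.98e-05), so the signal was 3.97-fold lower, and the groups were far apart. This call was made under all 24 alternatives, each array left out included, with log2 fold changes from -2.23 to -1.70. In the ileum Cox4i2 was close to the limit of detection, at 5.34, 5.33 and 4.86 in hyperoxia ileum, against 5.42, 5.55 and 4.95 in normoxia ileum, and was detected on 2 of 3 arrays in each group. The widely expressed isoform Cox4i1 read 13.08, 12.67 and 13.27 in hyperoxia lung, against 13.10, 13.07 and 13.11 in normoxia lung (-0.09 ± 0.25, adjusted p = 0.848). In the ileum Cox4i1 read 12.80, 12.74 and 11.73 in hyperoxia, against 13.12, 13.12 and 13.22 in normoxia (-0.73 ± 0.25, adjusted p = 0.0444), a call lost without hyperoxia ileum replicate 3 (adjusted p = 0.137), any normoxia array or hyperoxia lung replicate 1.

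Some markers of vessel-associated cells also changed in the lung. Of 6 pericyte markers, a list drawn up after these values were seen, 3 were lower in hyperoxia lung (Pdgfrb by -1.10, Higd1b by -0.84 and Notch3 by -0.89 on the log2 scale) and 0 were higher. Their summed signal ran from 1846 to 2251 in hyperoxia lung, against 3383 to 3914 in normoxia lung. In hyperoxia ileum 2 of the 5 pericyte markers tested were higher and 2 were lower, so the list had no common direction there. Of 6 smooth muscle markers tested, 4 were higher (Tagln by 2.53). The summed signal of the 7 smooth muscle markers read in either tissue ran from 31510 to 33771 in hyperoxia lung, against 11936 to 16361 in normoxia lung. The part of these cell types in the Cox4i2 result was not tested.

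Cox7a1 and Cox8b, other tissue-restricted isoforms of complex IV, varied more within a lung group than between the lung groups. Cox7a1, an isoform of heart and skeletal muscle and of brown fat, read 9.32, 7.75 and 7.69 in hyperoxia lung, against 7.55, 6.82 and 8.74 in normoxia lung (0.55 ± 0.58, adjusted p = 0.564). Cox8b, known from the same tissues, read 9.75, 7.88 and 7.32 in hyperoxia lung, against 8.07, 7.33 and 9.26 in normoxia lung (0.10 ± 0.59, adjusted p = 0.929). Both were highest on hyperoxia lung replicate 1 and normoxia lung replicate 3. On those arrays the brown fat gene Cidea read 8.76 and 7.69, against 4.64 to 5.16 on the other lung arrays, and Adipoq read 7.92 and 7.16, against 4.48 to 6.52. Of the 5 fat markers listed, Cidea and Adipoq were read by a detected probe and Ucp1 was not, with a summed signal from 71.1 to 675 in hyperoxia lung and from 48.7 to 349 in normoxia lung. The part of adjoining fat in these values was not tested.

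Cox6a2, the muscle isoform of subunit 6A, read 8.89, 9.81 and 9.68 in hyperoxia lung, against 8.82, 8.23 and 9.65 in normoxia lung (0.56 ± 0.31, adjusted p = 0.230), and it was detected on no ileum array. The lung arrays also carried heart muscle genes: Myh6, a heart myosin, read 6.57, 8.12 and 9.15 in hyperoxia lung, against 9.08, 7.97 and 10.05 in normoxia lung, and 4.47 to 4.63 on the ileum arrays. Of 8 heart markers tested in the lung, 3 were lower and 0 higher in hyperoxia, and the summed signal of the 9 read in either tissue ran from 1524 to 2911 in hyperoxia lung, against 2735 to 9065 in normoxia lung. Skeletal muscle genes were high on hyperoxia lung replicate 2 alone, where Mylpf read 10.05, against 5.32 to 6.04 on the other lung arrays. Their part in the isoform values was not tested.

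In the ileum Cox7a1 had the lowest log2 fold change among the members, at 8.77, 7.49 and 6.39 in hyperoxia, against 9.25, 9.63 and 9.75 in normoxia (-1.99 ± 0.58, adjusted p = 0.0244). The 3 hyperoxia values lay below all normoxia values but spread widely, and the call was lost without hyperoxia ileum replicates 2 or 3 or normoxia ileum replicates 2 or 3. Cidea read 6.51, 5.57 and 4.64 on the same hyperoxia arrays, against 5.90, 6.06 and 5.79 in normoxia ileum, and its part was not tested. Cox8b read 6.53, 5.58 and 4.96 in hyperoxia ileum, against 5.85, 6.45 and 5.82 in normoxia ileum (adjusted p = 0.684), with overlapping groups.

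Among the remaining isoform sets, 1 more gene was called. Cox7a2l, a factor that joins complexes III and IV in supercomplexes, read 11.31, 11.31 and 10.86 in hyperoxia ileum, against 11.61, 11.63 and 11.78 in normoxia ileum (-0.51 ± 0.18, adjusted p = 0.0494), and 11.27, 11.14 and 11.04 in hyperoxia lung, against 11.94, 11.43 and 11.65 in normoxia lung (-0.53 ± 0.18, adjusted p = 0.0529). It was the only one of the 74 members with all hyperoxia arrays below all normoxia arrays in both tissues. Cox7a2 read 10.39, 9.85 and 9.32 in hyperoxia ileum, against 9.83, 9.65 and 9.20 in normoxia ileum, and 8.67, 8.71 and 8.89 in hyperoxia lung, against 8.25, 8.28 and 8.11 in normoxia lung. Cox6a1 read 13.01, 12.73 and 11.48 in hyperoxia ileum, against 13.01, 13.16 and 13.16 in normoxia ileum, and 13.42, 13.30 and 13.20 in hyperoxia lung, against 12.91, 13.15 and 13.03 in normoxia lung. Neither gene passed the test in either tissue, although in the lung all hyperoxia values of both lay above all normoxia values.

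Cox6b1 and Cox6b2, alternative forms of subunit 6B of which Cox6b2 is known from testis, did not pass the test either. Cox6b1 read 12.48, 12.27 and 10.64 in hyperoxia ileum, against 12.56, 12.74 and 12.75 in normoxia ileum, and 12.81, 12.60 and 12.75 in hyperoxia lung, against 12.26, 12.39 and 12.43 in normoxia lung. In the lung all hyperoxia values of both genes lay above all normoxia values. Cox6b2 read 8.56, 7.68 and 7.17 in hyperoxia ileum, against 7.63, 7.44 and 7.02 in normoxia ileum, and 9.00, 8.82 and 9.25 in hyperoxia lung, against 8.45, 8.13 and 8.27 in normoxia lung. Cox7b, a small subunit with no read isoform partner, overlapped between the exposures in both tissues. It read 8.33, 7.72 and 7.43 in hyperoxia ileum, against 8.40, 7.45 and 7.71 in normoxia ileum, and 5.92, 6.47 and 6.41 in hyperoxia lung, against 6.31, 5.94 and 6.30 in normoxia lung. Ndufa4, a subunit now placed in complex IV, read 14.22, 13.97 and 13.74 in hyperoxia ileum, against 13.69, 13.54 and 13.50 in normoxia ileum, with the groups apart (0.40 ± 0.17, adjusted p = 0.0857). In the lung Ndufa4 averaged 13.16 ± 0.13 in hyperoxia and 12.85 ± 0.15 in normoxia (SD, n = 3 each), with overlapping groups.

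**Figure D3:**
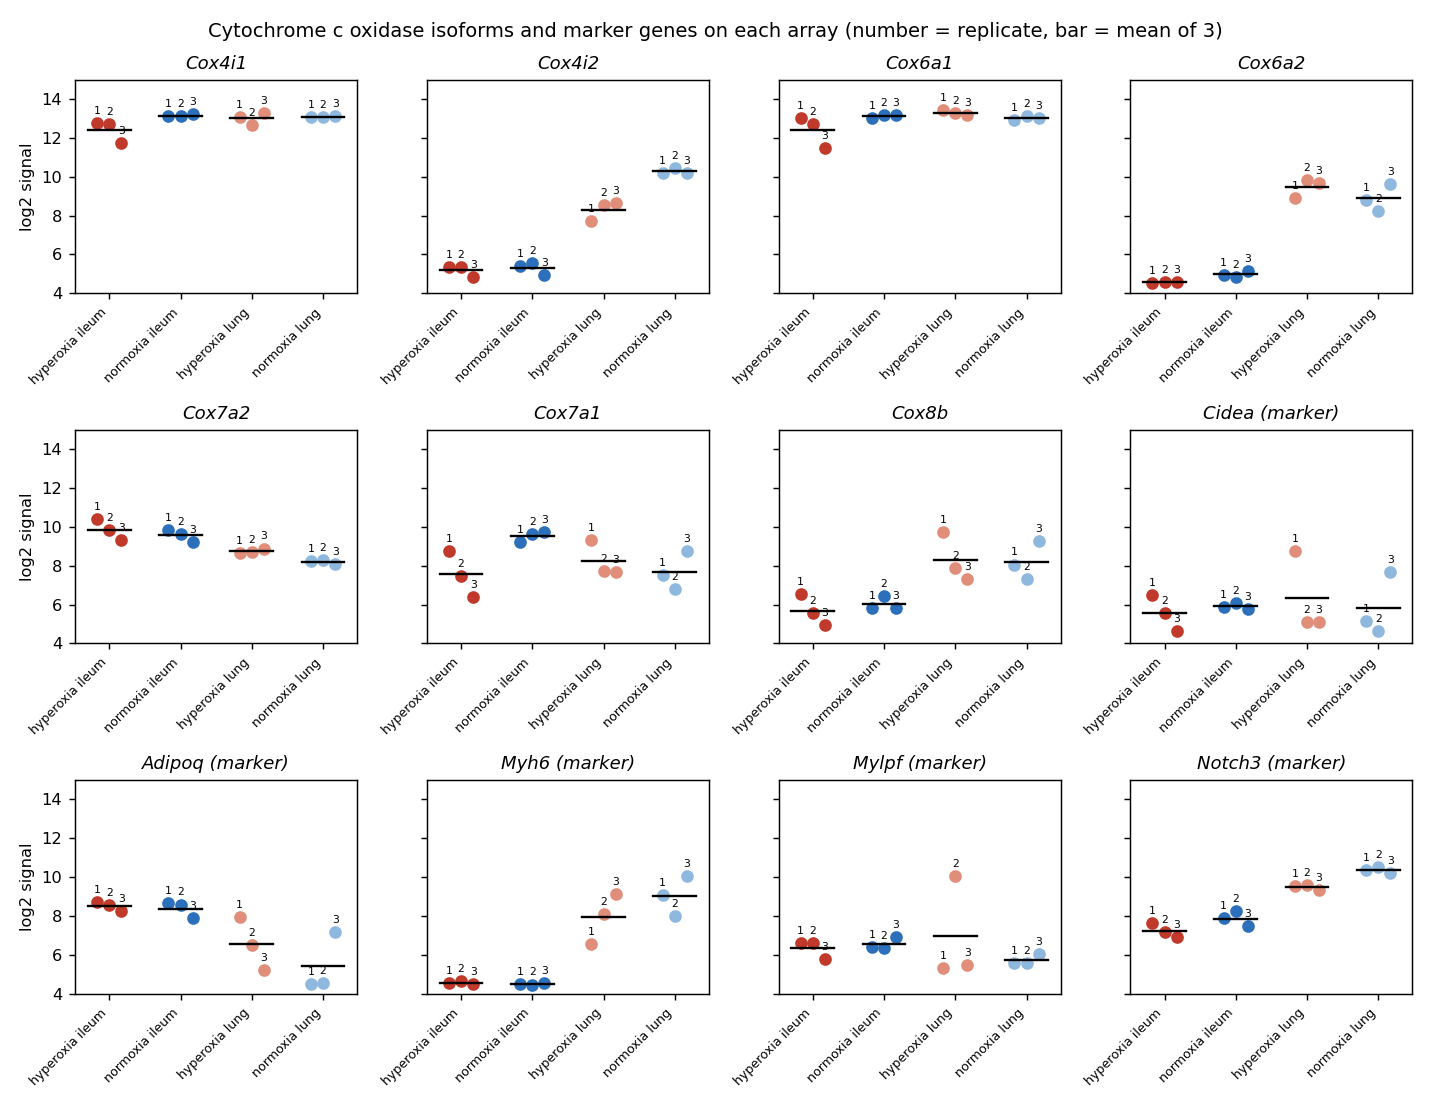
Log2 signal on each array of complex IV isoforms and of genes that mark other cell types, with 3 points and their mean per group and the replicate number above each point. Cox4i2 is lower in hyperoxia lung (7.70 to 8.63) than in normoxia lung (10.19 to 10.47), and Cox7a1, Cox8b and Cidea peak on hyperoxia lung replicate 1 and normoxia lung replicate 3.

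The difference between the tissues in the effect of hyperoxia was tested directly as ileum minus lung. It was called for 20 of 74 members, with 19 lower in the ileum than in the lung (25.7%, against a background of 13.8% of all genes) and 1 higher (1.35%, against 12.7%). The median difference was -0.64 over the members and -0.05 over all 10207 genes. Complex I held 11 of the 19 lower calls, complex V 4, complex IV 2, and complexes II and III 1 each. After Cox4i2 (1.86 ± 0.35, adjusted p = 0.00251), Ndufab1 (-1.20 ± 0.28, adjusted p = 0.00780), Ndufa9 (-1.10 ± 0.26, adjusted p = 0.00785) and Cox5a (-1.35 ± 0.32, adjusted p = 0.00876) had the largest moderated statistics. Cox4i2 lay at the detection floor in the ileum, where a fall like that in the lung could not have been read, so its positive difference has no meaning beyond the lung value.

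Cox5a was the member called in both tissues with opposite signs. It read 12.14, 12.15 and 11.13 in hyperoxia ileum, against 12.40, 12.49 and 12.53 in normoxia ileum (-0.66 ± 0.23, adjusted p = 0.0457), and its lung values are given above. Both calls were near the threshold. The ileal one was lost under 15 of 24 alternatives and the lung one under 14 of 24, and with hyperoxia ileum replicate 3 left out the ileal value was -0.33 (adjusted p = 0.108), whereas the difference was called under all 22 that gave a value. Ndufab1 read 11.88, 11.61 and 11.06 in hyperoxia ileum, against 11.94, 11.98 and 12.05 in normoxia ileum (-0.47 ± 0.20, adjusted p = 0.0886). Ndufa9 read 11.69, 11.79 and 11.56 in hyperoxia lung, against 11.21, 11.16 and 11.15 in normoxia lung (0.51 ± 0.18, adjusted p = 0.0646). Without hyperoxia ileum replicate 3 the difference was called for 19 members, 16 of them among the 20, and the median was -0.39. Counts without normoxia ileum replicates 2 and 3, hyperoxia lung replicate 1, and normoxia lung replicates 1 and 2 were 12, 9, 12, 13 and 11, and the count without hyperoxia ileum replicate 1 was 39. The share of all genes called with an array left out is not given here.

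**Figure D4:**
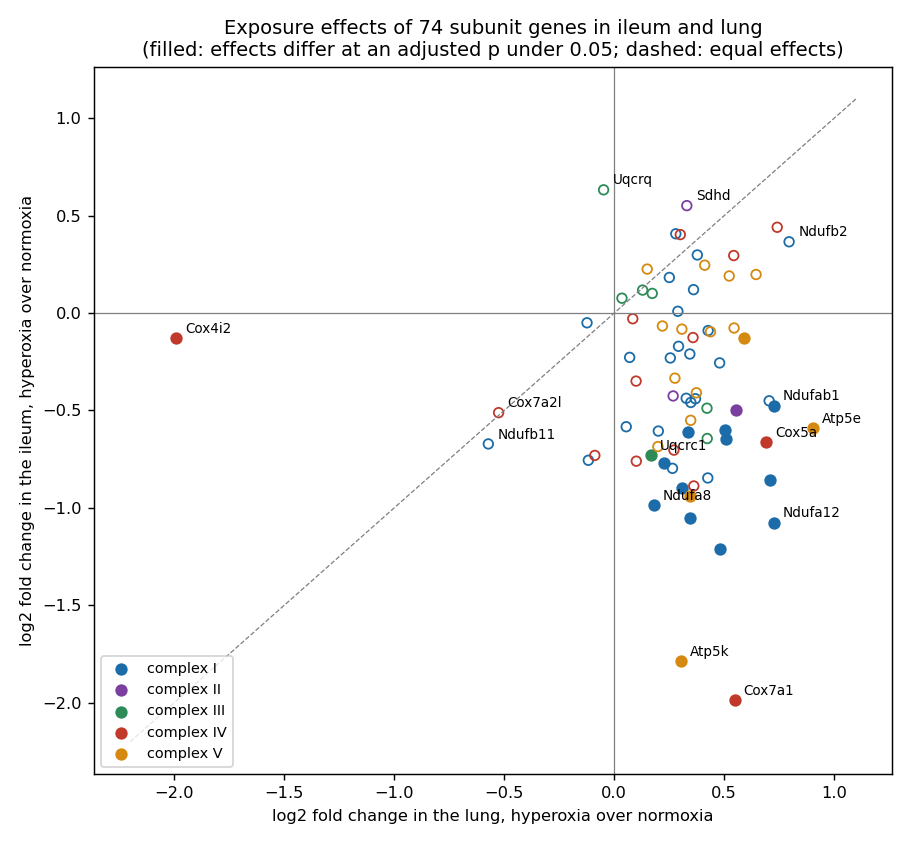
Each point is 1 of 74 subunit genes, with its log2 fold change in the lung on the x axis and in the ileum on the y axis, coloured by complex. Filled points are the 20 genes whose effects differed between the tissues, and the dashed line marks equal effects. Most points (50 of 74) lie in the lower right field, and Cox4i2 stands alone at the left at -1.99 in the lung.

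Under normoxia the ileum carried more signal than the lung for many subunit genes. Of 75 members, 36 were higher in normoxia ileum than in normoxia lung (48%, against a background of 26.1% of all genes) and 4 were lower (5.33%, against 29.4%). These normoxia arrays also serve the comparisons of hyperoxia with normoxia, so the 2 kinds of comparison are not independent. The median log2 fold change was 0.56 over the members and -0.03 over all 12153 genes. All 7 complex III genes and all 16 complex V genes were positive, with 5 and 12 calls, and 5897 of all 12153 genes were positive. Atp5c1 read 12.61, 12.75 and 12.56 in normoxia ileum, against 10.89, 10.98 and 11.18 in normoxia lung (1.62 ± 0.17, adjusted p = 1.4e-06). Uqcrc2 read 13.20, 13.09 and 12.91 in normoxia ileum, against 12.04, 12.16 and 12.17 in normoxia lung (0.95 ± 0.15, adjusted p = 9.6e-05), and the groups were apart for both.

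The 4 members lower in normoxia ileum were all isoforms of complex IV with restricted expression. Cox4i2 read 5.42, 5.55 and 4.95 in normoxia ileum, against 10.19, 10.47 and 10.19 in normoxia lung (-4.97 ± 0.25, adjusted p = 6.82e-10), and with no background correction the log2 fold change was -3.30. Cox6a2 was detected on no normoxia ileum array, so it was at least 12.3-fold higher in normoxia lung (adjusted p = 8.27e-08), a bound set by the lowest detected signal on the ileum arrays. Cox8b (-2.18 ± 0.59, adjusted p = 0.00581) and Cox6b2 (-0.92 ± 0.29, adjusted p = 0.0137) were lower as well. Cox7a1 ran the other way, higher in normoxia ileum (1.84 ± 0.58, adjusted p = 0.0152). Among widely expressed forms Cox7b (1.67 ± 0.27) and Cox7a2 (1.35 ± 0.24) were higher in normoxia ileum, and Cox4i1 (0.06 ± 0.25) and Cox6a1 (0.08 ± 0.29) did not pass the test.

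**Figure D5:**
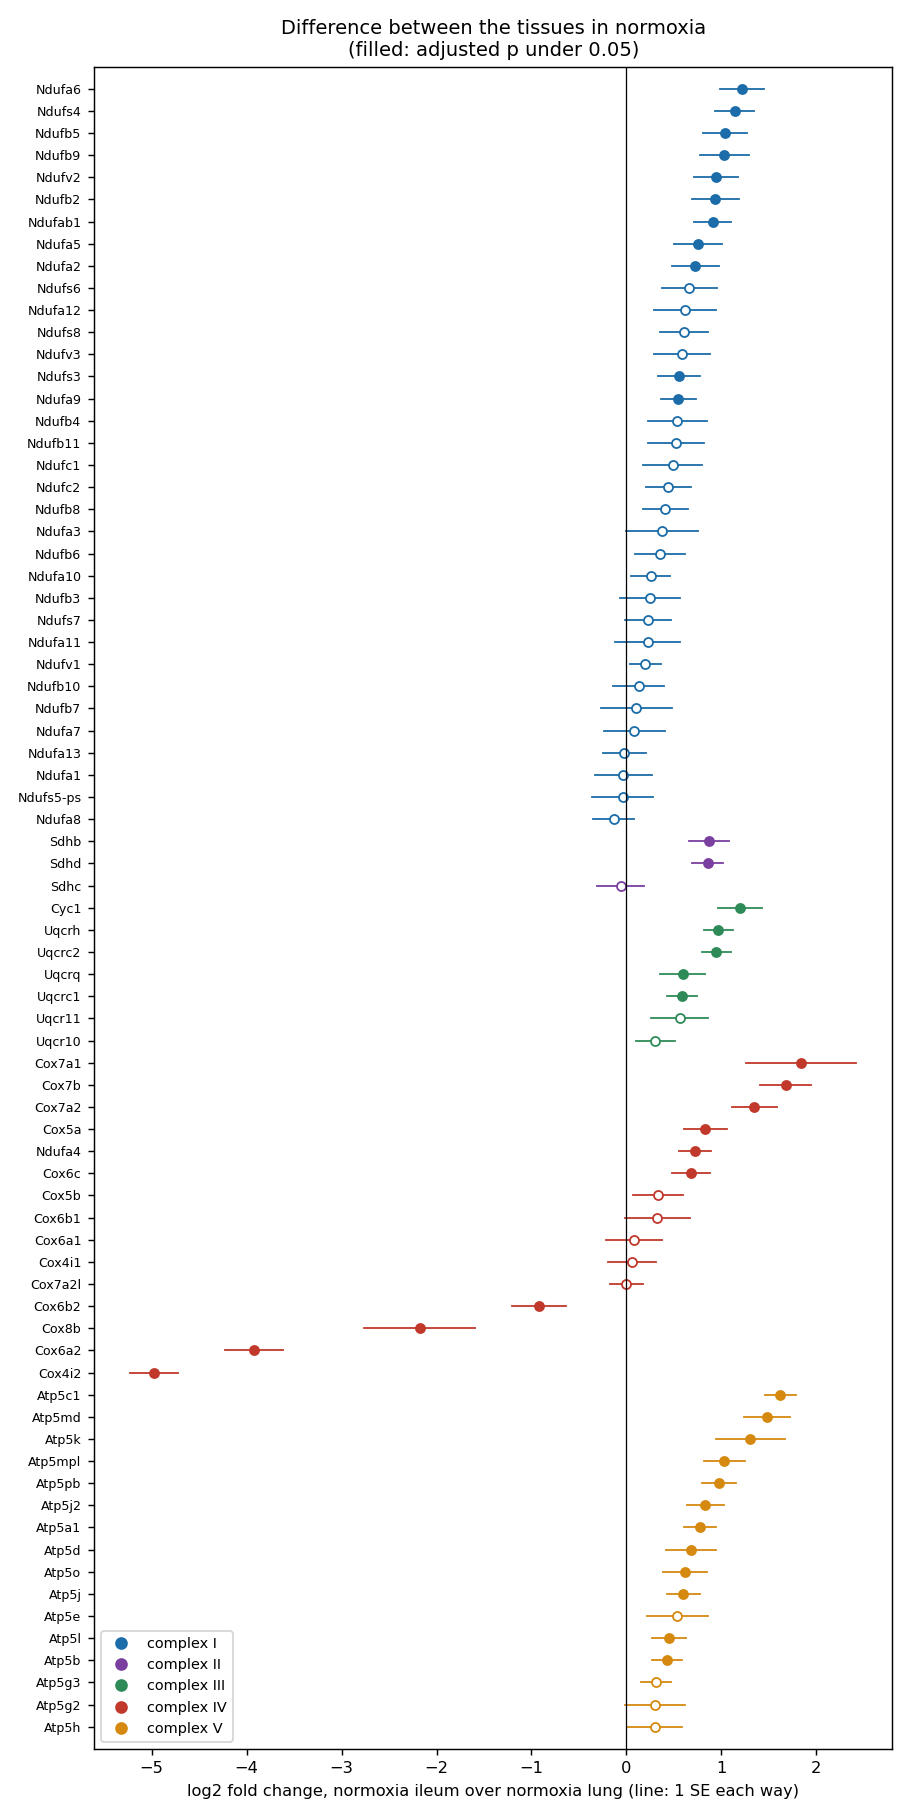
Log2 fold change of normoxia ileum over normoxia lung for 75 subunit genes with 1 SE each way (filled points passed the test), grouped and coloured by complex. Complexes I to III and V lie mostly right of 0, and the genes left of -0.5 are Cox6b2, Cox8b, Cox6a2 and Cox4i2, all of complex IV.

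Genes that build and run mitochondria beside these subunits were read from lists of known members, whose counts stand against the backgrounds given above (12.3% of all genes higher and 13.9% lower in hyperoxia ileum, 9.86% higher and 10.5% lower in hyperoxia lung). No list was tested against other genes, and no such background is given for the counts with an array left out. Among 72 mitochondrial ribosome genes, 20 were lower and 2 higher in hyperoxia ileum (median -0.41), and 9 were higher and 0 lower in hyperoxia lung (median 0.35). Mrps18b was called in both tissues, at -0.97 ± 0.20 in the ileum and 1.29 ± 0.20 in the lung. Without hyperoxia ileum replicate 3 the ileal counts were 11 lower and 3 higher (median -0.16), and 17 were higher in the lung. Among 38 assembly factors, 7 were lower and 2 higher in hyperoxia ileum, among them Ndufaf8 (-1.32 ± 0.26), and 6 were higher and 0 lower in hyperoxia lung, led by Ndufaf4 (1.06 ± 0.18), with 4, 3 and 11 calls without that array. Of 14 citric acid cycle genes, 0 were called in the ileum and 2 were higher in hyperoxia lung (Mdh2 by 0.86 ± 0.20 and Fh1 by 0.50 ± 0.16).

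Genes around the chain handle fuel and export ATP. Of 17 fatty acid oxidation genes, 2 were higher (Decr1 by 0.70 ± 0.18 and Hadhb by 0.65 ± 0.18) and 1 was lower in hyperoxia ileum, and 0 were called in the lung. Of 7 genes for cytochrome c and ATP export, 0 were called in the ileum and 2 were higher in hyperoxia lung, the mitochondrial creatine kinase Ckmt1 (1.94 ± 0.22, adjusted p = 3.53e-05) and cytochrome c itself, Cycs (0.67 ± 0.21, adjusted p = 0.0381). Of 11 regulators of mitochondrial biogenesis, 1 was lower in hyperoxia ileum (Esrra, the ERR alpha receptor, by -0.55 ± 0.17) and 1 was higher in hyperoxia lung (Pprc1, a relative of PGC-1, by 0.91 ± 0.19). Epithelial and immune markers moved in the same ileum arrays. Of 6 ileum markers 5 were lower in hyperoxia ileum, Fabp6 by -2.56 ± 0.41 and Anpep by -2.19 ± 0.27 among them, with a summed signal from 13927 to 15870, against 29196 to 37306 in normoxia ileum. Of 7 enterocyte markers, which share Vil1, Alpi and Anpep with that list, 3 were lower in the ileum, so these counts overlap. All 4 T cell markers tested were lower in both tissues (2 of 4 in the ileum without hyperoxia ileum replicate 3). Of 3 macrophage markers, 1 was higher in hyperoxia ileum and 2 in hyperoxia lung, and of 3 red cell markers 1 was higher in hyperoxia ileum and 0 were called in the lung. Without hyperoxia ileum replicate 3 the ileal calls of macrophage and red cell markers and of Esrra were not made, and of the fatty acid oxidation genes 1 was higher and 0 were lower. Their part in the subunit results was not tested.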

How the data were processed

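Total RNA of 12 samples was read on Illumina mouse bead arrays. The authors deposited, per array, non-normalized average probe intensity and detection p-values (GenomeStudio 2011.1, per the submitters' processing notes), and a table of background-subtracted, quantile-normalized intensity values, used here as an alternative only. Intensities were background-corrected with the detection p-values, quantile-normalized and log2-transformed after an offset of 16 (neqc, limma 3.58.1, R 4.3.3). Of 45281 probes, 34885 carried 1 symbol, 18 several and 10378 none. Each gene was read by its brightest probe detected (p under 0.05) on at least 3 of 6 arrays of a tissue. Group means were fitted with lmFit and eBayes, and p-values were adjusted by Benjamini-Hochberg over all genes tested. The code was tested on simulated data. For arrays, their number (3 per group) limits the precision.

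Values on every array are given for up to 5 called members per direction and tissue, up to 4 for each other contrast, and all isoform sets. Other members, the list genes Myh6, Mylpf, Cidea and Adipoq, and the pericyte list were named after their values were seen. Members and lists were chosen with earlier results of these data known. Alternatives covered background correction, scaling, the deposited normalized values, detection filter, probe choice, each tissue alone, moderation, an ordinary linear model, array weights, a replicate block, a 2-fold limit and each array left out.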

Additional observations from a re-analysis of the deposited data

Results flagged for a closer look

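For 20 members the effect of hyperoxia differed between ileum and lung in the limma fit (adjusted p under 0.05 over 10207 genes). The difference, ileum minus lung on the log2 scale, was above 0 for Cox4i2 (1.86, adjusted p = 0.00251) and below 0 for the other 19. In complex I it was -1.20 for Ndufab1 (adjusted p = 0.00780), -1.10 for Ndufa9 (0.00785), -1.80 for Ndufa12 (0.0130), -1.17 for Ndufa8 (0.0134), -1.56 for Ndufc1 (0.0207) and -0.95 for Ndufa10 (0.0298). It was -1.69 for Ndufa3 (adjusted p = 0.0320), -1.40 for Ndufa7 (0.0388), -1.15 for Ndufb6 (0.0390), -0.995 for Ndufs7 (0.0438) and -1.21 for Ndufv3 (0.0442). In the other complexes it was -1.05 for Sdhb (adjusted p = 0.0201), -0.90 for Uqcrc1 (0.0112), -1.35 for Cox5a (0.00876) and -2.54 for Cox7a1 (0.0368). In ATP synthase it was -2.09 for Atp5k (adjusted p = 0.0105), -1.29 for Atp5d (0.0210), -1.49 for Atp5e (0.0266) and -0.72 for Atp5a1 (0.0409). Among the 19, Atp5k, Cox5a, Ndufa8, Ndufa9, Ndufab1 and Uqcrc1 were called under every alternative that gave a value, except that Uqcrc1 did not reach the 2-fold limit. Cox4i2 lay at the detection floor in the ileum, so a fall could not have been read there and the sign of its difference was fixed by the floor.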

How the results depend on the processing

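The medians over the members kept their sign under every alternative, from -0.60 to -0.12 in the ileum, 0.27 to 0.40 in the lung, -0.88 to -0.39 for the difference and 0.53 to 0.59 between the tissues. Counts of calls moved more. The share of all genes called under each alternative is not given here. A rise or fall in these counts therefore cannot be read as particular to the members. Ileal calls (17) numbered 6 with no detection filter, 4 with each tissue fitted alone, 5 in the ordinary linear model, 27 with array weights (5 higher, 22 lower), 5 with the 2-fold limit, and 3 to 35 with 1 array left out. Lung calls (6) numbered 20 with each tissue alone (18 higher, 2 lower), 25 with array weights (22 higher, 3 lower), 1 with the 2-fold limit, and 1 to 17 with 1 array left out, and split 5 to 2 with no background correction. Calls of the difference (20) numbered 10 in the ordinary linear model, 37 with array weights and 9 to 39 with 1 array left out. Calls between tissues (40) numbered 15 with the 2-fold limit and 30 to 51 with 1 array left out. Atp5j between tissues reversed with the mean of its tested probes (-0.032, adjusted p = 0.921), since its probes disagree. The cause of the other changes was not tested. Each tissue alone and the probe chosen within each tissue give no value for the difference or between tissues, which need both tissues on 1 probe. Same-numbered arrays deviated together little if at all (r from -0.24 to 0.11 over 18 pairs). For normoxia ileum with normoxia lung r was 0.07, 0.03 and 0.09 for replicates 1, 2 and 3, each the highest for its number. Such values cannot tell whether 1 pup gave both tissues, and the comparisons across tissues took the arrays as independent. With the replicate block, calls numbered 11 in the ileum, 4 in the lung, 16 for the difference and 39 between tissues. Low signal over background limits Atp5k, Cox4i2, Cox6a2 and Cox8b, which lay at or under the lowest detected log2 signal (5.13 to 5.31) on some ileum arrays.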
